A study of Mus musculus with 80 samples.

Results

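The transcripts described here are 9 genes chosen as markers of blood cells, followed through every way of preparing brain RNA in a study of microglial isolation. They are the adult alpha-globins Hba-a1 and Hba-a2, the adult beta-globins Hbb-bs and Hbb-bt, the erythroid heme synthesis enzyme Alas2, the neutrophil genes S100a8 and S100a9, and the inflammatory monocyte genes Ly6c2 and Ccr2. The members were the rows of the 2 deposited count tables that carry these names, 9 of 16385 genes. Of the 9, 7 were found by symbol. Hbb-bs is listed in the tables as Beta-s and Hbb-bt as Hbb-b1, and both were matched by gene identifier (100503605 and 15129).

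All mice carried the genotype Cx3cr1(Jung)-cre/Ert2+;NuTRAP+ and received tamoxifen at 100 mg/kg each day at about 3 months of age. Cre driven from the Cx3cr1 locus then switches on eGFP-tagged ribosomes in Cx3cr1+ cells, which are microglia, other brain macrophages and, for as long as labelled cells persist in the circulation, blood monocytes. In flow cytometry of blood, the study found eGFP in CD11b+CD45+ cells back at the level of cre-negative mice. This held at the shortest delay after tamoxifen at which brains were taken. No group was left without tamoxifen or without the transgene, and both sexes were used. Translating ribosome affinity purification (TRAP) pulls down RNA on the tagged ribosomes with an antibody to GFP, and Input is the RNA before the pulldown. The sort table held 48 libraries from 6 preparations. Tissue was brain homogenised directly, Cell was the enzymatic suspension before sorting, autoMACS was a magnetic column with beads to CD11b, Tyto and FACSAria were a cartridge and a droplet sorter gated on CD11b, CD45 and eGFP, and autoMACS to Tyto ran both in a row. The preparation table held 32 libraries from 4 preparations. These were Tissue (the RNA of the same 4 mice sequenced again), Cell, Cell with inhibitors (actinomycin D, triptolide and anisomycin in the enzyme mix while the tissue was dissociated, but not in the later buffers) and Dounce (mechanical dissociation of the whole brain in the cold). Groups had 4 libraries, 1 per mouse, except Tyto with 5 and autoMACS to Tyto with 3. The brains were not perfused, so blood remained in the vessels. Total counts ran from 7129464 to 20168116 per library in the sort table and from 2471448 to 14650287 in the preparation table.

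Hemoglobin is assembled from alpha- and beta-globin chains and heme, and its mRNAs are made in erythroid precursors and persist in reticulocytes after the nucleus is lost. ALAS2 is the erythroid form of the enzyme that starts heme synthesis, while ALAS1 serves other cells. S100A8 and S100A9 pair to form calprotectin, the most abundant cytosolic protein of neutrophils, and are made at lower levels by monocytes. CCR2 is the chemokine receptor that lets inflammatory monocytes leave bone marrow, and Ly6C is the surface protein that marks these monocytes. Ly6c1 codes for a close relative of Ly6c2 and is abundant in brain endothelium. Microglia are not known as a source of globin, Alas2 or calprotectin transcripts in the healthy brain. In these data Ccr2 was higher in TRAP than in Input of the unsorted suspensions, and Ly6c2 varied with Ly6c1. A blood source is therefore not settled for Ccr2 or Ly6c2.

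The promoters of 7 members are printed here because the globin and calprotectin genes moved as pairs in these data, and the windows show how alike or unlike the genes of a pair are. Each window is the 150 bases before the RefSeq start site in GRCm38.p6, the assembly also called mm10, read 5′ to 3′ on the strand of the gene. Windows lie at chr11:32283522-32283671 (Hba-a1, plus), chr11:32296342-32296491 (Hba-a2, plus), chr7:103827929-103828078 (Hbb-bs, minus), chr7:103813924-103814073 (Hbb-bt, minus), chrX:150547267-150547416 (Alas2, plus), chr3:90668921-90669070 (S100a8, plus) and chr3:90695722-90695871 (S100a9, minus). Capitals mark matches, on either strand, to the CACCC box, the CCAAT box, the GATA site core AGATAA and the TATA box TATAA, and capitals of neighbouring matches run together.
Hba-a1: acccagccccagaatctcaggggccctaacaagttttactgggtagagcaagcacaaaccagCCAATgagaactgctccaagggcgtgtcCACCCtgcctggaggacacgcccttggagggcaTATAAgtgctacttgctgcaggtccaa
Hba-a2: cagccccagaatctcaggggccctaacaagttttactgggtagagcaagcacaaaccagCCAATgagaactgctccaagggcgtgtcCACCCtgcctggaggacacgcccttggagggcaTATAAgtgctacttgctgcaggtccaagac
Hbb-bs: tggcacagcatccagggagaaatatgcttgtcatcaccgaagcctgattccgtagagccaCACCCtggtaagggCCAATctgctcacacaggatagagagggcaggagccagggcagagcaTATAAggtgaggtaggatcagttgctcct
Hbb-bt: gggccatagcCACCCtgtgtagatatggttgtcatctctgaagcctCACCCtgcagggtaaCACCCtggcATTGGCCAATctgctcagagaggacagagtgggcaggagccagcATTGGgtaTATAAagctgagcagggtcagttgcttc
Alas2: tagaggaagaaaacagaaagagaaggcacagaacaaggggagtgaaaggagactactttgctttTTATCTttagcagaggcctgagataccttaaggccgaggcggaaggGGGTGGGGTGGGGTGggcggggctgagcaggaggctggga
S100a8: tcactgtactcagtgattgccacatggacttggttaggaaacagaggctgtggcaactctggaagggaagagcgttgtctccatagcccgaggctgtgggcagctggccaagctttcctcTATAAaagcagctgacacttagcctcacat
S100a9: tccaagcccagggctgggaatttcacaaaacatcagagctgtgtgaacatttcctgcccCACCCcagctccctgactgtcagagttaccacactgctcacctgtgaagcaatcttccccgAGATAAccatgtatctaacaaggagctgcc
Both alpha-globin windows held the CCAAT box, the CACCC box and the TATA box, and shared an unbroken run of 147 of 150 bases. In Hba-a1 these motifs began 88, 60 and 27 bases before the start. Both beta-globin windows held the same 3 motifs, in Hbb-bs at 76, 90 and 29 bases before the start, and their longest shared run was 14 bases. The Alas2 window held 3 CACCC matches and 1 AGATAA, all on the minus strand. S100a8 held only TATAA, and S100a9 held CACCC and AGATAA. The share of 27025 mouse promoter windows of this length that held each motif was 36.9% for CACCC, 25.3% for CCAAT, 14.7% for TATAA and 5.76% for AGATAA, so that single matches are common.

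The likeness of the pairs set what the counts could tell apart. Of the 50-base windows of the Hba-a1 transcript 67.5% also occurred in Hba-a2, and 86.9% of those of Hba-a2 occurred in Hba-a1. For Hbb-bs and Hbb-bt the shares were 65.8% and 58.3%, for Ly6c2 against Ly6c1 32.6%, and S100a8 and S100a9 shared none. In windows of 150 bases the shares were 48.4% and 65.7% for the alpha pair, 58.7% and 50.7% for the beta pair and 5.79% for Ly6c2, and the methods name runs of both lengths without saying which table used which. The split of reads within the alpha pair, the beta pair and the Ly6c pair is therefore uncertain. It was visible in Tissue, where the same RNA was in both tables. The ratio of Hba-a1 to Hba-a2 counts was 6.02 to 7.26 in Tissue-Input of the sort table and 3.45 to 3.81 in Tissue-Input of the preparation table, with no overlap. Adding the near-identical genes together changed the count of members called in 7 of 31 comparisons, each by 1 and each through Ly6c2.

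The unit of level is CPM, a count divided by the TMM-normalised (trimmed mean of M values) size of its library and put on a common scale. A member was called when edgeR's quasi-likelihood test gave a Benjamini-Hochberg adjusted p under 0.1 over all genes tested and a fold above 2, the cutoffs of the study. Log2 fold changes are given with their standard errors. Each count of members called is followed by the percentage of all tested genes called the same way. In bulk RNA, fewer cells of a type and less RNA per cell cannot be told apart.

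All 9 members were higher in Input of the cell suspension than in Input of whole tissue. In the sort table Hba-a1 was at 94.2, 135, 79.6 and 116 CPM in Tissue-Input of mice 946 to 949 and at 1911, 1841, 1753 and 2699 CPM in Cell-Input of the same mice. Every Cell-Input library was above every Tissue-Input library, and the log2 fold change was 4.37 ± 0.87 (adjusted p = 0.000108), or 13.6 to 23.2-fold mouse by mouse. Hba-a2, Hbb-bs and Hbb-bt rose by 4.69 ± 0.77, 4.38 ± 0.86 and 4.48 ± 0.87 on the log2 scale. The 4 globins together took 0.0245% to 0.0438% of the counts in Tissue-Input and 0.595% to 0.954% in Cell-Input.

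Alas2 rose further than the globins, from 2.23 to 5.6 CPM in Tissue-Input to 163 to 329.8 CPM in Cell-Input (log2 fold change 5.86 ± 0.68, adjusted p = 6.72e-08). It stood at 1.22 to 1.70 counts per 100 globin counts in Tissue-Input and at 3.58 to 4.70 in Cell-Input, so that the ranges did not overlap. The white cell genes moved from near the limit of counting. S100a9 was at 0.683, 0.467, 0.0927 and 0.261 CPM in Tissue-Input and at 4.61, 11.1, 5.59 and 9.53 CPM in Cell-Input (4.44 ± 0.89, adjusted p = 0.000118). S100a8 rose by 4.33 ± 0.84, Ly6c2 by 4.25 ± 0.63 and Ccr2 by 3.53 ± 0.35. All 9 members were called higher, against 28.5% of all genes tested, with a median log2 change of 0.17 over all genes. A gene was tested where all libraries of some group held more than 5 counts. S100a8, S100a9 and Ccr2 did not reach this in Tissue-Input and were tested through other groups, so the filter favoured their calls of higher.

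The same comparison in the preparation table used other mice for Cell and gave 9 of 9 members higher (25.6% of genes). Among them S100a8, S100a9, Ly6c2 and Ccr2 held too few counts in Tissue-Input to pass the filter there. They were tested through other groups, so the filter favoured their calls of higher. Hba-a1 was at 8273, 5783, 5185 and 3546 CPM in Cell-Input of mice 156, 157, 1361 and 1362, against 95.5 to 171 CPM in Tissue-Input (5.25 ± 0.33, adjusted p = 4.45e-11). The lowest of these libraries was above the highest Cell-Input library of the sort table, a difference between tables that was not tested. S100a9 was at 41.5, 9.23, 17.5 and 9.45 CPM. Ly6c2 was at 2.73 to 5.12 CPM, and since its Tissue-Input libraries held 0 to 3 counts no fold is given.

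Most genes on the lists for blood cells were higher with the members, and so were genes of other brain cell types in the suspension. The lists were chosen with earlier results of these data known. In Cell-Input against Tissue-Input of the sort table, 8 of 11 tested erythroid genes were higher and 1 lower, with a median log2 change of 1.74. Only 1 of 7 genes of the remaining heme synthesis pathway, which most cells use, was called, and Alas1 differed by 0.59 ± 0.11. Of 19 neutrophil genes 13 were higher (median 3.25), among them Ngp, a neutrophil granule protein, at 4.19 ± 1.06. Of 21 monocyte genes 18 were higher and 1 lower (median 2.38), of 11 lymphocyte genes 8 were higher and 1 lower (median 3.52), and of 9 platelet genes 5 were higher and 2 lower (median 1.65). Microglial markers rose in 8 of 8 (median 4.30), endothelial markers, Ly6c1 among them, in 10 of 10 (4.67), and neuronal markers fell in 6 of 6 (-2.92). The loss of neuronal RNA and the rise of other brain cell types moved with the rise of the blood genes, and their part in it was not tested.

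**Figure D1:**
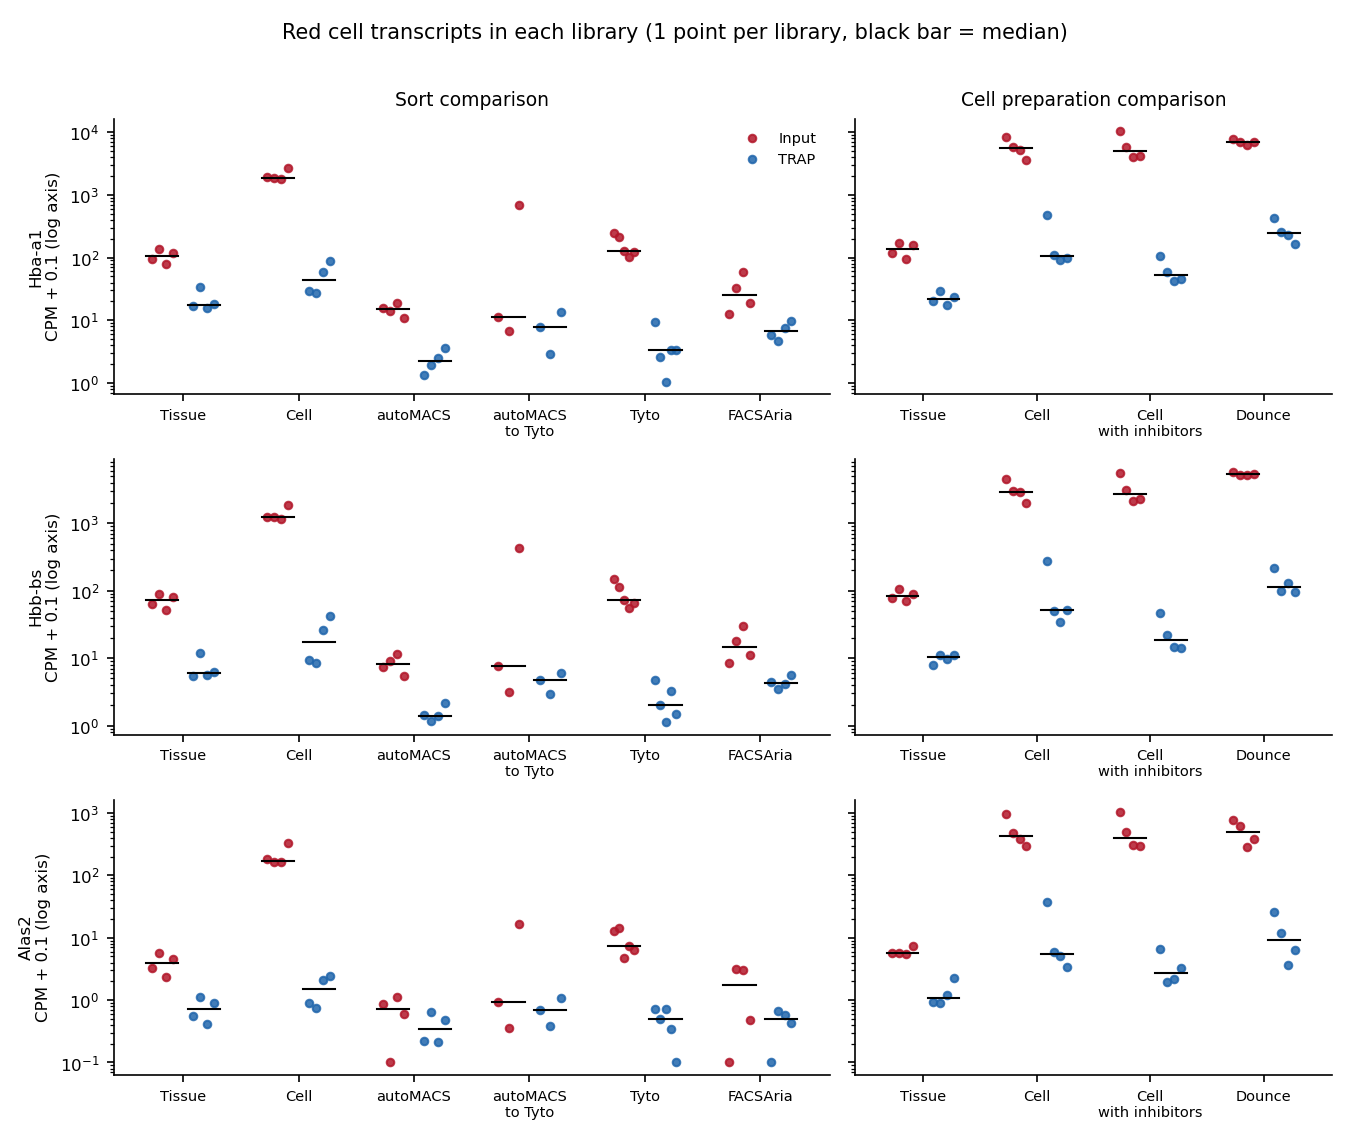
Levels of Hba-a1, Hbb-bs and Alas2 in every library, as CPM + 0.1 on a log axis, with the sort table in the left panels and the preparation table in the right panels; red points are Input, blue points TRAP and black bars group medians. Hba-a1 stood at 1753 to 2699 CPM in Cell-Input and at 10.8 to 19.1 CPM in autoMACS-Input, and 1 autoMACS to Tyto-Input library stood apart at 683 CPM.

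Magnetically sorted cells differed from the suspension in both directions. The 2 preparations came from different mice, so the mouse cannot be told apart from the sort. The 5 red cell genes and Ly6c2 were lower and the neutrophil genes and Ccr2 were higher after the sort. Hba-a1 was at 15.6, 14.2, 19.1 and 10.8 CPM in autoMACS-Input of mice 66, 67, 72 and 73, below all Tissue-Input libraries as well as all Cell-Input libraries. Against Cell-Input its log2 fold change was -7.37 ± 1.01 (adjusted p = 6.69e-07), and Hbb-bs changed by -7.67 ± 1.03. Alas2 held 0 to 10 counts per library, 0 to 1.01 CPM, a log2 fold change of -9.01 ± 0.90. The globins together took 0.00212% to 0.00444% of the counts.

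S100a9 in the same autoMACS-Input libraries was at 59.6, 90.6, 107 and 31.2 CPM, all above the 4.61 to 11.1 CPM of Cell-Input (2.95 ± 0.64, adjusted p = 0.000241). S100a8 rose by 2.34 ± 0.61 and Ccr2 by 2.35 ± 0.26, to 17.1 to 28.1 CPM. Ly6c2 fell by 2.20 on the log2 scale (± 0.57), to 2.32 to 4.93 CPM, and its paralogue could share reads with it. CD11b, on which the column selects, is carried by neutrophils and monocytes as well as by microglia. In all 3 members were called higher (18.2% of genes) and 6 lower (33.4%). Alas2 did not pass the filter in autoMACS-Input and was tested through other groups, so the filter favoured its call of lower. In the gene lists 15 of 19 neutrophil genes were higher and 1 lower (median log2 change 2.42), 13 of 21 monocyte genes were higher and 5 lower (2.12), and 7 of 11 erythroid genes were lower and 4 higher (-3.12). Microglial markers were higher in 8 of 8 (2.44), and endothelial markers lower in 10 of 10 (-4.56). The median of all genes was -0.06.

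The eGFP-gated sorts differed from the magnetic column in both directions. Tyto and FACSAria shared no mouse with autoMACS, so the mouse cannot be told apart from the sort there. The eGFP-gated sorts, taken as the equally weighted mean of autoMACS to Tyto, Tyto and FACSAria, held less S100a8, S100a9 and Ly6c2 than autoMACS-Input, and more globin. S100a9 was at 29.6, 9.92 and 65.6 CPM in autoMACS to Tyto-Input (mice 66, 67 and 73), at 33.2, 38.2, 14.2, 14.1 and 10.6 CPM in Tyto-Input and at 1.00, 12.1, 0.0994 and 3.41 CPM in FACSAria-Input. Its log2 fold change against autoMACS-Input was -2.24 ± 0.46 (adjusted p = 0.00357), that of S100a8 was -1.98 ± 0.46 and that of Ly6c2 was -1.55 ± 0.48. Without the autoMACS-Input library of mouse 67, Ly6c2 was at -1.20 ± 0.55 and was no longer called (adjusted p = 0.148).

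Ccr2 differed by -0.74 ± 0.20, under the fold cutoff (adjusted p = 0.0163). Its libraries ran from 12.1 to 21.7 CPM in autoMACS to Tyto-Input, from 11.4 to 18.2 CPM in Tyto-Input and from 8.23 to 15.4 CPM in FACSAria-Input. Every eGFP-gated group thus lay above the 2.67 to 5.1 CPM of the unsorted suspension.

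Hba-a1 was at 11.3, 6.59 and 683 CPM in autoMACS to Tyto-Input, at 248, 213, 129, 102 and 123 CPM in Tyto-Input and at 12.6, 32.3, 59.8 and 19.1 CPM in FACSAria-Input. The library of mouse 73 stood apart from the other two of its group and 63.5-fold above the autoMACS library of the same mouse, Tyto-Input lay above all autoMACS-Input libraries, and FACSAria-Input overlapped them. Against autoMACS-Input the eGFP-gated sorts were higher by 2.86 ± 0.78 on the log2 scale for Hba-a1 (adjusted p = 0.0176), by 2.94 ± 0.80 for Hbb-bs and by 3.17 ± 0.97 for Alas2. Without the library of mouse 73 the difference of Hba-a1 was 1.29 ± 0.32 (adjusted p = 0.0145), the 4 globins were still called, and Alas2 at 2.06 ± 0.86 was not (adjusted p = 0.116). In all 5 members were called higher, against 1.03% of genes, and 3 lower, against 4.21%.

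Genes of the lists parted in the same comparison. Of 19 neutrophil genes 12 were lower and none higher (median log2 change -1.47), of 21 monocyte genes 13 were lower and none higher (-1.33) and of 11 lymphocyte genes 6 were lower and none higher (-1.88). Lactotransferrin, Ltf, a neutrophil granule protein, differed by -1.57 ± 0.57, while Csf3r, the G-CSF receptor, which microglia also express, differed by 0.20 ± 0.12 and was not called. Of 11 erythroid genes 1 was lower and none higher (0.08), and of 7 heme synthesis genes none was called (-0.06). No other erythroid gene tested was called higher beside globin and Alas2. The most abundant of them, Slc25a37, Tmcc2, Bpgm and Tal1, are also expressed outside the erythroid lineage. Microglial markers were called in 0 of 8.

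**Figure D2:**
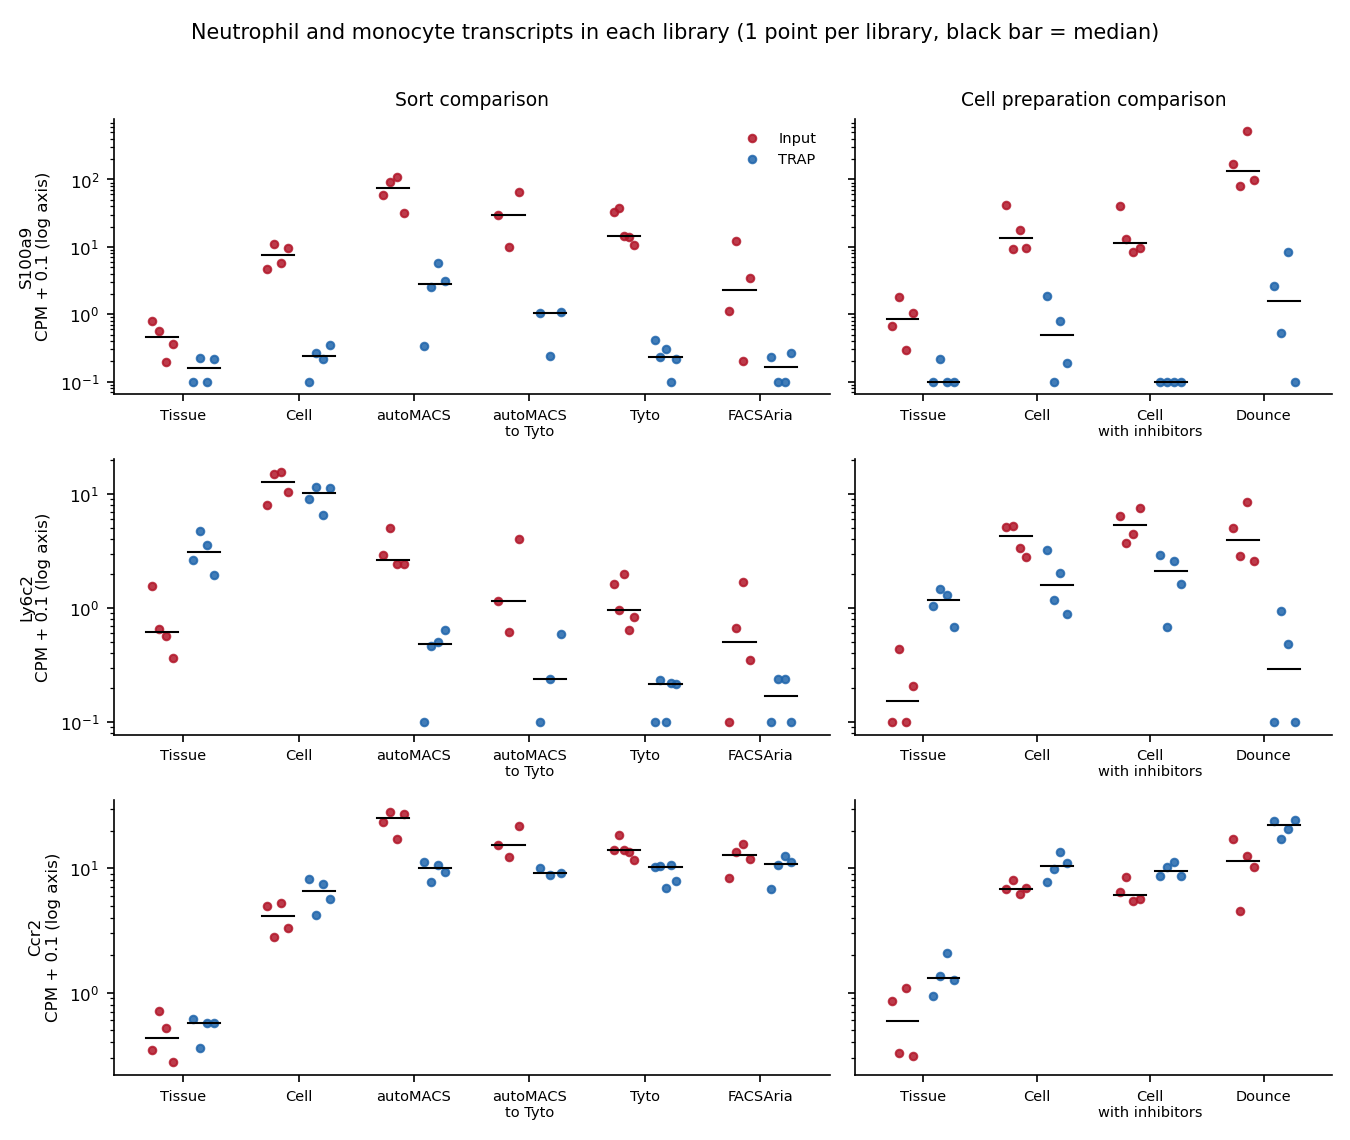
Levels of S100a9, Ly6c2 and Ccr2 in every library, as CPM + 0.1 on a log axis, with the sort table in the left panels and the preparation table in the right panels; red points are Input, blue points TRAP and black bars group medians. S100a9 stood at 31.2 to 107 CPM in autoMACS-Input and at 79.8 to 520.2 CPM in Dounce-Input, while in TRAP it lay near the limit of counting in most groups.

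Against the unsorted suspension the eGFP-gated sorts held less of the 5 red cell genes and Ly6c2 and more Ccr2. The mice of these sorts also differed from those of the suspension. Hba-a1 differed by -4.51 ± 0.59 on the log2 scale (adjusted p = 2.34e-07), Alas2 by -5.84 ± 0.47 and Ly6c2 by -3.74 ± 0.44. Ccr2 rose by 1.61 ± 0.23. S100a8 at 0.37 ± 0.52 (adjusted p = 0.522) and S100a9 at 0.71 ± 0.54 (adjusted p = 0.226) were not called, with libraries on both sides of the suspension. Here 6 members were called lower (34.8% of genes) and 1 higher (16.9%). Without the library of mouse 73 Hba-a1 differed by -6.08, and the same number of members, 7, was called.

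autoMACS to Tyto, the magnetic column followed by the Tyto, was compared with autoMACS alone in libraries that share mouse numbers, and the labels do not say whether they share a suspension. In the fit without pairing, 5 members were called higher in autoMACS to Tyto-Input than in autoMACS-Input, against 0.483% of genes, with Hba-a1 at 4.01 ± 0.91 (adjusted p = 0.0253). Alas2 at 3.51 ± 1.11 lost its call without the autoMACS-Input library of mouse 67, 72 or 73. The call rested on mouse 73. Without that library the 4 globins were lower rather than higher, Hba-a1 at -0.68 ± 0.48 (adjusted p = 0.48), and no member was called. With the mouse as a block no member was called either, and Hba-a1 was at 1.48 ± 1.11 (adjusted p = 0.61). S100a9 was at 59.6 and 29.6 CPM in autoMACS-Input and autoMACS to Tyto-Input of mouse 66 and at 90.6 and 9.92 CPM in those of mouse 67, and at 31.2 and 65.6 CPM in those of mouse 73. It therefore differed in opposite directions among the 3 mice.

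The 2 instruments that share the eGFP gate were compared on opposite hemispheres of mice 69, 945 and 991. Hba-a1 was at 248, 102 and 123 CPM in Tyto-Input and at 12.6, 32.3 and 59.8 CPM in FACSAria-Input of these mice, higher in the Tyto in 3 of 3 by 2.06 to 19.6-fold. Over all libraries of both groups every Tyto-Input value of the 5 red cell genes was above every FACSAria-Input value. The log2 difference was 2.38 ± 0.79 for Hba-a1 (adjusted p = 0.277) and 2.34 ± 0.67 for S100a9 (adjusted p = 0.179). No member was called by edgeR, against 0.476% of genes in either direction, although 7 of 9 had an unadjusted p under 0.05. How many of all genes had such a p, or separated the groups without overlap, was not counted. Neither pattern can therefore be read as particular to the members. DESeq2 and limma each called 1 member, S100a8. Without the FACSAria-Input library of mouse 945, which held 12.1 CPM of S100a9, 2 members were called, S100a8 at 4.53 ± 0.78 (adjusted p = 0.038) and S100a9 at 3.94 ± 0.77 (adjusted p = 0.046).

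**Figure D3:**
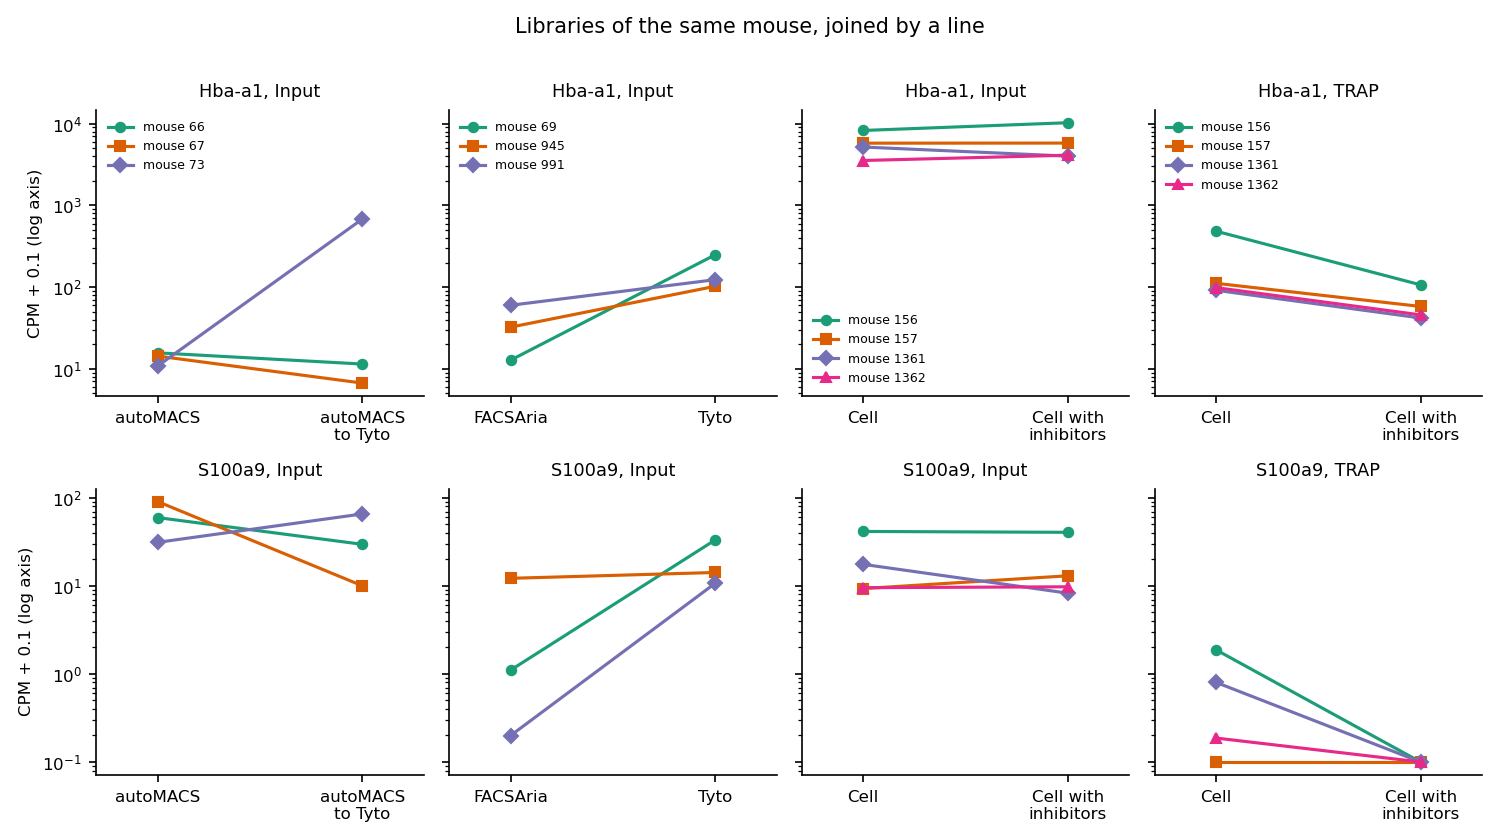
Hba-a1 (upper panels) and S100a9 (lower panels) in CPM on a log axis in the 2 preparations made from each mouse, with 1 line per mouse; panels from left to right show autoMACS against autoMACS to Tyto, Tyto against FACSAria, and Cell against Cell with inhibitors in Input and in TRAP. The line of mouse 73 climbs from 10.8 to 683 CPM of Hba-a1 where those of mice 66 and 67 fall, and all 4 mice have less Hba-a1 in TRAP with inhibitors.

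The mechanical preparation in the cold held the highest median of calprotectin transcripts. In Dounce-Input of mice 179 to 182 S100a9 was at 169.6, 79.8, 520.2 and 96.5 CPM and S100a8 at 94.9, 41.9, 274 and 64.9 CPM, each above all Cell-Input libraries of the table. The log2 fold change against Cell-Input was 3.82 ± 0.62 for S100a9 (adjusted p = 1.42e-05) and 4.40 ± 0.64 for S100a8 (adjusted p = 3.92e-06). Mouse 181 had the highest S100a8, S100a9 and Ly6c2 of its group and the lowest Hba-a1. The ratio of S100a9 to S100a8 counts was 1.48 to 1.90 in Dounce-Input and 1.62 to 2.41 in autoMACS-Input.

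The beta-globins rose by 1.15 ± 0.26 (Hbb-bs, 5143 to 5837 CPM) and 1.06 ± 0.29 (Hbb-bt) over Cell-Input. The alpha-globins differed by 0.65 ± 0.28 (Hba-a1, 6241 to 7844 CPM, adjusted p = 0.039) and 0.80 ± 0.28 (Hba-a2), under the fold cutoff. Globins took 2.31% to 2.79% of all counts in Dounce-Input. Ccr2 was at 16.9, 4.39, 12.5 and 10.1 CPM, overlapping the 6.13 to 7.92 CPM of Cell-Input (1.02 ± 0.34, adjusted p = 0.0105), and was no longer called without the library of mouse 179, 181 or 1361. Ly6c2 at 0.53 ± 0.43 (adjusted p = 0.257) and Alas2 at 0.31 ± 0.38 (adjusted p = 0.461) were not called. In all 5 members were called higher, against 28.8% of genes, and 3 without the Cell-Input library of mouse 1362, where Hbb-bs was at 0.99 ± 0.27 and Hbb-bt at 0.89 ± 0.29.

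The neutrophil list moved with calprotectin, with 18 of 20 genes higher and 1 lower (median log2 change 3.18), Ngp at 3.82 ± 0.69 and Ltf at 3.88 ± 0.73 among them. Of 13 erythroid genes 6 were higher and 1 lower (0.96), of 21 monocyte genes 12 were higher and 4 lower (1.25) and of 13 lymphocyte genes 7 were higher (1.08). Microglial markers were lower in 6 of 8 (-1.46) and endothelial markers in 10 of 10 (-5.65), and the median of all genes was -0.06. Dounce used whole brains cleared with Percoll, Cell used hemisected brains cleared with another reagent, and the mice differed, so these cannot be told apart from the mechanical step. The study also describes lower RNA integrity and more 3′ bias in Dounce-Input than in Cell-Input, and their part in these differences was not tested. Against Tissue-Input, Dounce-Input was higher for 9 of 9 members (28.7% of genes) and for 8 where Ly6c2 was summed with Ly6c1, with Hba-a1 at 5.90 ± 0.34 and S100a9 at 8.22 ± 0.88. Here too S100a8, S100a9, Ly6c2 and Ccr2 were tested only through groups other than Tissue-Input.

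The inhibitors were compared with the plain suspension in libraries of the same 4 mice. In Input, Hba-a1 was at 10290, 5796, 4013 and 4121 CPM with inhibitors and at 8273, 5783, 5185 and 3546 CPM without, in mice 156, 157, 1361 and 1362. The order of the mice was almost kept, mouse 156 being the highest in both. The log2 difference was 0.08 ± 0.28 for Hba-a1, -0.12 ± 0.61 for S100a9 and -0.11 ± 0.34 for Ccr2. No member was called by edgeR, DESeq2 or limma, none had an unadjusted p under 0.05, and 0.311% of genes were called in either direction. No gene of the other blood cell lists was called.

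**Figure D4:**
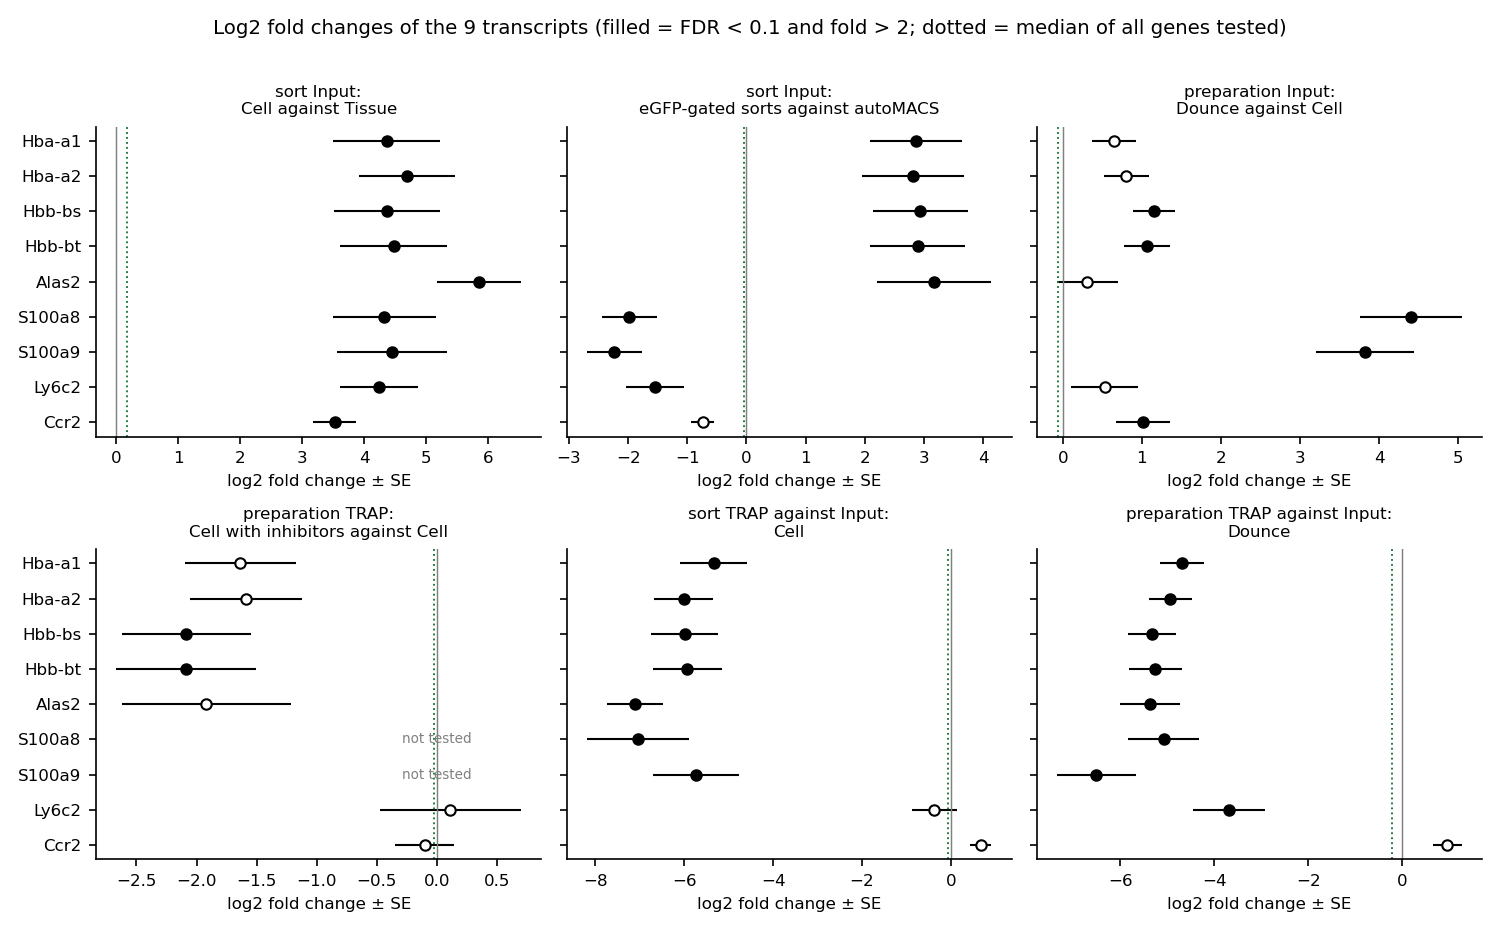
Log2 fold changes of the 9 members with their standard errors in 6 comparisons, 1 panel each; filled points are called, open points are not, and the dotted line is the median of all genes tested. In eGFP-gated sorts against autoMACS the red cell genes lie to the right of 0 and the white cell genes to the left, whereas in Cell against Tissue all 9 lie above 3.

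In TRAP, 7 of the 9 members passed the filter on low counts (more than 5 counts in every library of a group), and S100a8 and S100a9 did not. The members that remained were higher in the suspension, by less for the globins than in Input. In the sort table Hba-a1 was at 16.9, 33.5, 15.5 and 18.1 CPM in Tissue-TRAP and at 29.2, 27.1, 59.5 and 87.1 CPM in Cell-TRAP of mice 946 to 949, a log2 fold change of 1.29 ± 0.43 (adjusted p = 0.00887). The groups overlapped, since Tissue-TRAP of mouse 947 was above 2 Cell-TRAP libraries. Ccr2 rose by 3.87 ± 0.29 (adjusted p = 6.6e-12), from 0.255 to 0.515 CPM to 4.11 to 8.09 CPM. In Tissue-TRAP of mouse 947 Ccr2 held 4.5 counts, so that group did not pass the filter. Ccr2 was therefore tested through other groups, and the filter favoured its call of higher. Alas2 at 1.19 ± 0.63 lost its call when any of 5 libraries was left out. Of the 7 members tested 7 were called higher (25.1% of genes), and 4 without the Cell-TRAP library of mouse 949, where Hba-a1 was at 0.89 ± 0.45.

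The test of the difference between the fractions gave the globin gap directly. The log2 effect of the suspension on Hba-a1 in TRAP minus that in Input was -2.99 ± 0.93 (adjusted p = 0.00607), and for Alas2 it was -4.53 ± 1.11. For Ccr2 the difference was 0.43 ± 0.50 (adjusted p = 0.479). In all 6 members had a lower effect in TRAP, against 29.5% of genes. In the preparation table the same 6 members were called lower for Cell (35.7% of genes) and 6 for Dounce (18.3%), with Hba-a1 at -2.27 ± 0.58 and -2.11 ± 0.58. Ccr2 was at -0.62 ± 0.53 and -0.25 ± 0.52 and was not called in either. Alas2 lost its call in both without mouse 949 of Tissue.

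In TRAP of the preparation experiment 6 of 7 members were called higher in Cell-TRAP than in Tissue-TRAP (22.3% of genes), Hba-a1 by 3.17 ± 0.50, and Ly6c2 at 0.81 ± 0.62 was not called. In Dounce-TRAP against Tissue-TRAP 6 of 7 were higher as well (23.2%), Hba-a1 by 3.65 ± 0.51 and Ccr2 by 4.08 ± 0.29. Ly6c2 there was not called over all libraries and was called lower without Dounce-TRAP of mouse 180.

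TRAP of sorted cells held less globin than TRAP of the suspension. Sorted cells and suspension came from different mice here as well. Hba-a1 was at 1.26, 1.86, 2.38 and 3.51 CPM in autoMACS-TRAP, and the log2 fold change against Cell-TRAP was -4.50 ± 0.53. In the eGFP-gated sorts it was at 0.957 to 13.3 CPM (-3.15 ± 0.34). Ly6c2 held 0 to 10 counts in every sorted TRAP library and was below the 6.4 to 11.4 CPM of Cell-TRAP in all of them. Ccr2 was at 6.73 to 12.4 CPM over the sorted TRAP libraries, against 4.11 to 8.09 CPM in Cell-TRAP (0.59 ± 0.21 for autoMACS and 0.56 ± 0.18 for the eGFP-gated sorts, under the fold cutoff). Here 6 of 7 members were lower in autoMACS-TRAP (23% of genes) and 6 in the eGFP-gated sorts (23.4%). Alas2 and Ly6c2 held 3 counts or fewer in some libraries of autoMACS-TRAP, Tyto-TRAP and FACSAria-TRAP, as did Hba-a2 in autoMACS-TRAP. For these genes those groups did not pass the filter. They were tested through other groups, so the filter favoured their calls of lower.

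The eGFP-gated sorts against autoMACS in TRAP gave 4 globins higher (1.65% of genes) and Ly6c2 lower (1.05%). Hba-a1 differed by 1.35 ± 0.47 (adjusted p = 0.0369) at levels of a few CPM. Without the autoMACS-TRAP library of mouse 67, 3 members were called, and the calls of Hba-a1, Hbb-bt and Ly6c2 were each lost without at least 1 library. Ccr2 differed by -0.03 ± 0.17 and was not called. In autoMACS to Tyto-TRAP against autoMACS-TRAP 4 globins were higher (1.7% of genes), and leaving out 1 library brought this to 0 (autoMACS to Tyto of mouse 73), 1 (autoMACS of mouse 67) or 2 (autoMACS to Tyto of mouse 66). Between Tyto-TRAP and FACSAria-TRAP no member was called by edgeR, DESeq2 or limma, 0 of 7 had an unadjusted p under 0.05, and 0.0936% of genes were called in either direction.

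With inhibitors, the pulldown from the suspension held less globin. Hba-a1 was at 484, 111, 91.4 and 98.5 CPM in Cell-TRAP and at 106.5, 57.9, 41.8 and 45.6 CPM in Cell with inhibitors-TRAP of mice 156, 157, 1361 and 1362. It was lower with inhibitors in 4 of 4 mice, by 1.92 to 4.55-fold, and Alas2, Hba-a2, Hbb-bs and Hbb-bt were lower in 4 of 4 as well. The fit without pairing called 2 members lower, Hbb-bs at -2.08 ± 0.54 (adjusted p = 0.064) and Hbb-bt at -2.09 ± 0.58 (adjusted p = 0.0979), against 0.632% of genes, and Hba-a1 at -1.64 ± 0.46 was not called (adjusted p = 0.107). With the mouse as a block all 5 red cell genes were called, Hba-a1 at -1.35 ± 0.16 (adjusted p = 0.000154), Hba-a2 at -1.39 ± 0.14 and Alas2 at -1.48 ± 0.33 (adjusted p = 0.0113). The 0.632% belongs to the fit without pairing. No share of all genes is set beside the 5 calls of the blocked fit, so whether they stand out there is not shown.

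The Cell-TRAP library of mouse 156 stood apart from the others in all 5 red cell genes. Without it, in the fit without pairing, no member was called, and Hba-a1 was at -0.66 (adjusted p = 0.56). Leaving out any of the inhibitor libraries of mice 157, 1361 and 1362 also left 0 called, and leaving out Cell-TRAP of mouse 157 or 1362, or the inhibitor library of mouse 156, gave 4. Ccr2 differed by -0.10 ± 0.24 and Ly6c2 by 0.11 ± 0.59, and neither was called. Of the gene lists no other gene was called, including 0 of 8 erythroid genes (median log2 change -0.20) and 0 of 16 monocyte genes (-0.24), where the median of all genes was -0.03.

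Dounce-TRAP held more Ccr2 and less Ly6c2 than Cell-TRAP. Ccr2 was at 23.7, 17.0, 20.6 and 24.1 CPM in Dounce-TRAP and at 7.57, 9.65, 13.4 and 11.0 CPM in Cell-TRAP, with no overlap (1.05 ± 0.25, adjusted p = 0.00165). Ly6c2 held 0 to 4 counts in Dounce-TRAP and was at 0.784 to 3.12 CPM in Cell-TRAP (-2.30 ± 0.83, adjusted p = 0.0273). Thus 1 member was called higher (20.7% of genes) and 1 lower (8.02%). Ly6c2 did not pass the filter in Dounce-TRAP and was tested through other groups, so the filter favoured its call of lower. In Cell-TRAP, Ly6c1 counts were 58.9 to 94.3 times those of Ly6c2, and the endothelial list without Ly6c1 fell in this comparison (median log2 change -4.67). Dounce-TRAP libraries held 2471448 to 4724538 counts, Cell-TRAP libraries 12876223 to 14650287. The part of misplaced Ly6c1 reads and of depth in the Ly6c2 difference was not tested. Ccr2 fell under the fold cutoff without Dounce-TRAP of mouse 179 or 182, which left 1 member called. Without Cell-TRAP of mouse 156 the 5 red cell genes were called higher in Dounce-TRAP, the globins by 1.44 to 1.67 and Alas2 by 1.37, while Ccr2 at 0.92 ± 0.26 was not, for a total of 6.

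In TRAP against Input of the same preparation, globin, Alas2 and calprotectin transcripts were lower throughout where called, and Ccr2 and Ly6c2 went either way. S100a8 and S100a9 passed the filter through Input groups only, so the filter favoured their calls of lower. In the sort table Hba-a1 in TRAP differed from Input by -2.34 ± 0.68 in Tissue, -5.33 ± 0.76 in Cell, -2.70 ± 0.86 in autoMACS and -4.18 ± 0.47 in the eGFP-gated sorts. Mouse by mouse Input held 4.04 to 6.43 times the TRAP level in Tissue and 29.4 to 68.1 times in Cell. In the preparation table the ranges were 5.54 to 6.63 in Tissue, 17.1 to 56.7 in Cell, 90.3 to 100.1 in Cell with inhibitors and 18.2 to 41.8 in Dounce.

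S100a8 and S100a9 were nearly lost in the pulldown. In the sort table Cell-TRAP held 0, 0, 0 and 2 counts of S100a8 and 0, 2, 2 and 4 of S100a9. In autoMACS, S100a9 was at 0.24, 2.4, 5.62 and 2.97 CPM in TRAP, a log2 fold change of -4.67 ± 0.64 against Input. Cell with inhibitors-TRAP held 0 counts of both in 4 of 4 libraries. With a floor of 3 counts per library, S100a8 was there at least 33-fold and S100a9 at least 65.7-fold lower than in Input. In Dounce-TRAP S100a9 was at 2.51, 0.421, 8.15 and 0 CPM (-6.51 ± 0.83).

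Ccr2 was higher in TRAP than in Input in 4 of 4 mice in Cell of the sort table (1.44 to 1.75 times), and in Cell (1.13 to 2.18), Cell with inhibitors (1.21 to 2.07) and Dounce (1.40 to 3.88) of the preparation table. The fitted log2 differences were 0.67 ± 0.24 (adjusted p = 0.0124), 0.59 ± 0.30 (adjusted p = 0.0808), 0.58 ± 0.30 (adjusted p = 0.0882) and 0.96 ± 0.30 (adjusted p = 0.00628), all under the fold cutoff. In Dounce the blocked fit gave 1.12, and Ccr2 was called. After sorting the direction was the other one. Ccr2 fell by 1.31 on the log2 scale (± 0.23, adjusted p = 3.58e-05) in autoMACS, where TRAP held 0.269 to 0.617 of the Input level, and differed by -0.57 ± 0.14 in the eGFP-gated sorts, under the fold cutoff.

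Ly6c2 went both ways too. In Tissue of the sort table it was higher in TRAP, 1.86 to 4.6 CPM against 0.261 to 1.46 CPM in Input (2.17 ± 0.58, adjusted p = 0.00313). In Cell it was at 6.4 to 11.4 CPM in TRAP and at 7.94 to 15.6 CPM in Input, a difference of -0.37 ± 0.50 that was not called. In autoMACS it fell by 3.23 on the log2 scale (± 0.66) and in Dounce by 3.69 (± 0.76). The endothelial paralogue Ly6c1 moved beside it. Ly6c1 counts were 11.7 to 16.3 times those of Ly6c2 in Cell-Input of the sort table, 36.7 to 68 times in Cell-Input of the preparation table and 0.461 to 1.05 times in Dounce-Input. When the 2 genes were added together, the change of Dounce-Input against Cell-Input turned from 0.53 to -4.53. Ly6c1 is high in endothelium and is itself on the endothelial list, whose other 9 genes all fell in that comparison (median log2 change -5.61), and how many reads of the pair were placed on the wrong gene was not tested.

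Over the members, TRAP against Input gave 6 lower (1.87% of genes) and 1 higher (9.23%) in Tissue, 7 lower in Cell (30.9%), 8 lower in autoMACS (17.4%) and 8 lower in the eGFP-gated sorts (16.6%) of the sort table. S100a8 in Tissue, at 0 counts in 4 of 4 TRAP libraries and at least 1.64-fold lower there than in Input, lost its call when any mouse was left out. In autoMACS the count was 5 without mouse 72, and Hba-a2, Hbb-bs or Hbb-bt lost its call without mouse 66 or 67. In the preparation table it was 5 lower (2.31%) and 2 higher (8.21%) in Tissue, and 8 lower in Cell (36.7%), in Cell with inhibitors (35.8%) and in Dounce (26.7%). The counts of lower members include calls of S100a8 and S100a9, which the filter admitted through Input groups only and so favoured. Without mouse 946, 947 or 948 Alas2, and without mouse 947 or 949 Ccr2, was no longer called in Tissue of the preparation table, where the other member called higher, Ly6c2, held 0 to 3 counts in Input. Ly6c2 in Cell of that table was no longer called without mouse 157. Microglial markers were higher in TRAP in 8 of 8 in Cell of the sort table (median log2 change 2.78) and in Dounce (4.13), beside 13 of 19 and 16 of 20 neutrophil genes lower and 7 of 11 and 10 of 13 erythroid genes lower. In Cell-TRAP 4 neutrophil and 2 erythroid genes were at 0 in every library, and in Dounce-TRAP 3 and 1. These were tested through other groups, so the filter favoured their calls of lower. The summed neutrophil median was 157 CPM in Cell-Input and 335 in Cell-TRAP, and 636 and 418 in Dounce. In the eGFP-gated sorts 0 of 8 microglial markers and 14 of 19 neutrophil genes, all lower, were called.

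The pulldown also changed the proportion of alpha- to beta-globin counts, a comparison between transcripts that had 0 windows of 50 or 150 bases in common. In Tissue of the sort table the ratio of summed alpha to summed beta counts was 0.877 to 0.971 in Input and 1.68 to 1.73 in TRAP. It was 0.856 to 0.938 and 1.12 to 1.83 in Cell of that table, 0.981 to 1.14 and 1.31 to 1.83 in Tissue of the preparation table, 1.13 to 1.24 and 1.55 to 2.11 in Cell with inhibitors, and 0.867 to 0.962 and 1.23 to 1.70 in Dounce. TRAP was above Input without overlap in these 5 settings. In Cell of the preparation table the ranges overlapped, at 1.20 to 1.27 in Input and 1.14 to 1.85 in TRAP. After sorting, where TRAP libraries held few globin counts, TRAP was not above Input. In autoMACS it was lower without overlap, at 0.631 to 0.862 against 0.870 to 1.15, and in the other sorted preparations the ranges overlapped.

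**Figure D5:**
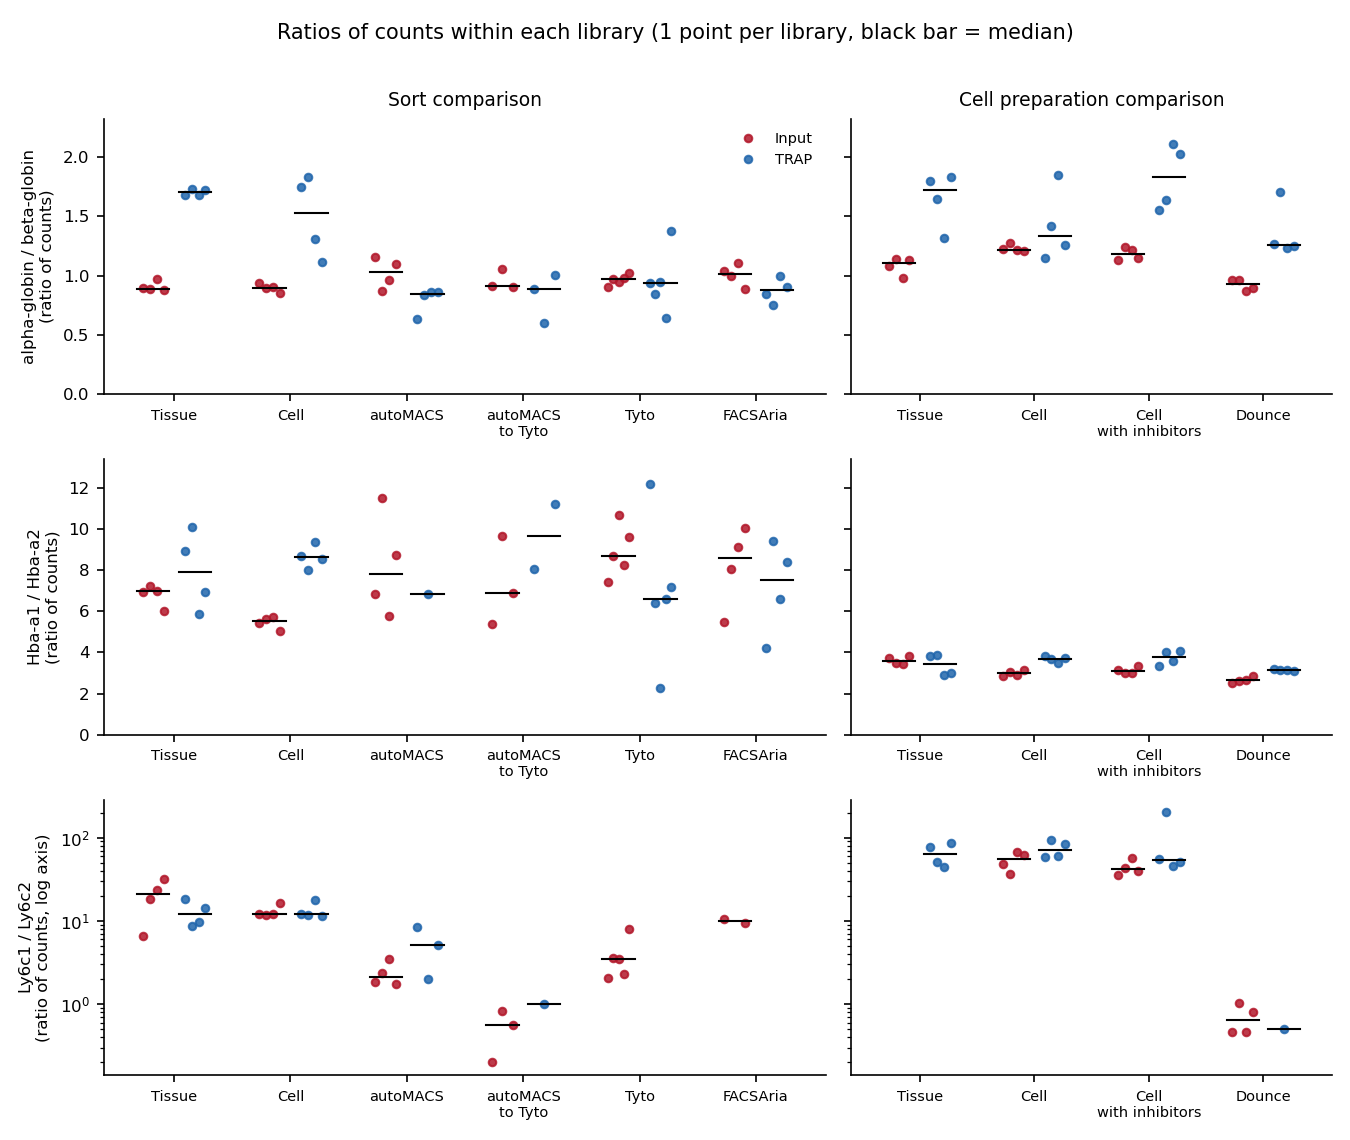
Ratios of counts within each library, red for Input and blue for TRAP: alpha- to beta-globin, Hba-a1 to Hba-a2, and Ly6c1 to Ly6c2 on a log axis. Any ratio was left out where its denominator held 3 counts or fewer. Alpha to beta stood at 0.877 to 0.971 in Tissue-Input and at 1.68 to 1.73 in Tissue-TRAP of the sort table, and Ly6c1 to Ly6c2 fell to 0.461 to 1.05 in Dounce-Input.

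The red cell genes varied together, as did both calprotectin genes, and the monocyte genes less so. Over the 24 Input libraries of the sort table, after each group's mean was taken off log2(CPM + 1), the 4 globins correlated with each other at 0.98 to 1.00 and Alas2 with the globins at 0.90 to 0.92. S100a8 and S100a9 correlated at 0.97, Hba-a1 and S100a9 at 0.45 and S100a9 and Ccr2 at 0.14. Ly6c2 correlated with Ccr2 at 0.48, with Hba-a1 at 0.66 and with Ly6c1 at 0.76, and Ccr2 with Hba-a1 at 0.50. These values describe libraries that share mice and preparations, and the globin values rest in part on the library of mouse 73. Per kilobase of exon, Hba-a1 in Cell-Input of the sort table was at 2158 to 3324 CPM, Hbb-bt at 1591 to 2672 and Hbb-bs at 1515 to 2473. The ranges of these 3 overlapped, and all lay above Hba-a2 at 459.1 to 802.2. Alas2 at 68.01 to 137.2 followed, then S100a9 at 8.827 to 21.29 and S100a8 at 5.919 to 11.39, which overlapped, Ly6c2 at 2.897 to 5.694, and Ccr2 at 0.3952 to 0.7539. The length used was the union of all annotated exons, 2740 bases for Ly6c2 and 6760 for Ccr2. The longest protein-coding transcript of Ly6c2 had 822 bases, so its place below calprotectin depends on the length chosen. In autoMACS-Input S100a9, at 59.74 to 204.9 per kilobase, and S100a8, at 27.66 to 64.11, stood above Hba-a1, at 13.25 to 23.56.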

How the data were processed

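RNA from brains, cell suspensions and sorted cells of Cx3cr1-NuTRAP mice was sequenced from poly(A)-selected, stranded libraries on an Illumina NovaSeq. The authors aligned the reads to mm10 in Strand NGS v4.0, removed duplicates and deposited gene tables, of which the latest for each experiment were used and an earlier table of libraries that the preparation table also holds was not. The raw columns the authors deposited hold estimated counts, not all of them whole, which were rounded here to whole numbers, and the deposited log2 columns hold values normalized with DESeq2, used here only in an alternative. The read type of each table is not given in the sources used here. Every value column was matched to a sample, leaving 0 columns unused. CPM were computed from library totals (7129464 to 20168116 and 2471448 to 14650287) times TMM factors, and the shallowest libraries cannot resolve members at under 1 CPM.

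A gene was tested where some group had all its samples above 5 counts, in edgeR 4.0.16 (R 4.3.3) with TMM scaling and the quasi-likelihood test, with all groups of a table and fraction in 1 fit, and all libraries of a table in 1 fit for TRAP against Input. Calls needed a Benjamini-Hochberg adjusted p under 0.1 over all genes and a fold above 2. The scripts were tested on simulated data. Libraries of 1 group came from separate mice. Cell with inhibitors and Cell, autoMACS to Tyto and autoMACS, Tyto and FACSAria (3 mice), sort Cell and Tissue, and TRAP and Input shared mice, so these fits were repeated with the mouse as a block. Same-mouse deviations from the group means correlated at 0.228 to 0.576 between Cell with inhibitors-TRAP and Cell-TRAP and at -0.028 to 0.237 for the Input of autoMACS to Tyto and of autoMACS. Alternatives were DESeq2 1.42.0, its size factors, no scaling, totals without globin, other filters, limma 3.58.1 on the deposited log2 values, near-identical genes summed, only the groups compared, and each library left out.

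The members and the gene lists (erythroid, heme synthesis, neutrophil, monocyte, lymphocyte, platelet, microglia, border macrophage, endothelium, neuron, astrocyte, oligodendrocyte) were chosen with earlier results of these data known. Values are given for the 9 members and Ly6c1, for the most abundant genes of each list, and for the genes most like Hbb-bs, S100a9 and Ccr2 by Pearson correlation, of which the list for Hbb-bs with group means taken off is not reported here. Gene identifiers matched RefSeq for 15873 of 15919 and 15955 of 16000 genes, and 23 symbols in each table had been turned into dates. Promoter windows came from RefSeq on GRCm38.p6.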

Additional observations from a re-analysis of the deposited data

Results flagged for a closer look

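In 18 of 150 groups of 4 or 5 libraries, taken gene by gene, 1 library of a member lay far from the rest by Dixon's test, which flags about 1 group in 20 by chance. The flags fell on a few mice. Cell-TRAP of mouse 156 in the preparation table held 484 CPM of Hba-a1, 127 of Hba-a2, 274 of Hbb-bs, 261 of Hbb-bt and 37 of Alas2, each above its group, and the same mouse held 32.1 CPM of Hba-a2 in Cell with inhibitors-TRAP and 40.5 CPM of S100a9 in Cell with inhibitors-Input. Cell-Input of mouse 949 in the sort table was high in red cell genes, at 2699 CPM of Hba-a1, 1900 of Hbb-bs, 1878 of Hbb-bt and 329.8 of Alas2, and Tissue-Input of mouse 949 in the preparation table held 7.15 CPM of Alas2. Tissue-TRAP of mouse 947 in the sort table held 33.5 CPM of Hba-a1, 11.7 of Hbb-bs and 9.57 of Hbb-bt. Tyto-TRAP of mouse 69 held 9.39 CPM of Hba-a1, 0.77 of Hba-a2 and 0.308 of S100a8, the last resting on 4 counts. The 683 CPM of Hba-a1 in autoMACS to Tyto-Input of mouse 73 was not tested this way, since its group has 3 libraries.

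The effect of preparation in TRAP differed from that in Input for the same 6 members in 3 tests. In Cell against Tissue of the sort table the log2 difference was -2.99 for Hba-a1, -3.43 for Hba-a2, -2.67 for Hbb-bs, -2.65 for Hbb-bt, -4.53 for Alas2 and -2.54 for Ly6c2. In Cell against Tissue of the preparation table it was -2.27, -2.70, -1.79, -1.81, -3.09 and -4.36 in the same order. In Dounce against Tissue it was -2.11, -2.44, -2.20, -2.07, -3.12 and -6.84. The values of Ly6c2 in the preparation table rest on Tissue-Input libraries with 0 to 3 counts.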

How the results depend on the processing

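Counts of members called kept within 1.5 times of the value reported in 237 of 256 fits that left out 1 library. They ranged over 9 to 9 for Input Cell against Tissue in both tables and for Input Dounce against Tissue and autoMACS against Cell, 7 to 7 for Input eGFP-gated sorts against Cell, 7 to 8 for eGFP-gated sorts against autoMACS, 0 to 5 for autoMACS to Tyto against autoMACS (0 without mouse 73), 0 to 2 for Tyto against FACSAria, 3 to 6 for Dounce against Cell and 0 to 0 for the inhibitors. In TRAP of the sort table the ranges in the same order were 4 to 7 (Cell against Tissue), 6 to 8 (autoMACS against Cell), 6 to 6, 3 to 7, 0 to 4 and 0 to 0. In TRAP of the preparation table they were 6 to 6 and 6 to 7 against Tissue, 0 to 4 for the inhibitors and 1 to 6 for Dounce against Cell. TRAP against Input gave 6 to 6, 7 to 7, 5 to 8 and 8 to 8 in the sort table, 5 to 6, 7 to 8, 8 to 8 and 8 to 9 in the preparation table, and the differences between fractions 6 to 6, 5 to 6 and 5 to 6. A filter of at least 10 counts in every sample removed the members that are low in some group and so left 3 called in each Input comparison of the sort table other than Tyto against FACSAria, 5, 5 and 2 in Cell and Dounce against Tissue and Dounce against Cell, 1 in sort TRAP Cell against Tissue, 2 in the other sort TRAP comparisons, 0 in preparation TRAP Dounce against Cell, 2 and 4 in TRAP against Input of the sort and preparation tables and 2 in the difference between fractions of the sort table. DESeq2 called 4 in Input eGFP-gated sorts against Cell, 5 in eGFP-gated sorts against autoMACS, 2 in autoMACS to Tyto against autoMACS, 1 in Tyto against FACSAria, and in TRAP 4 in sort Cell against Tissue and 4 with inhibitors. DESeq2's size factors, and no scaling, each gave 4 in sort TRAP Cell against Tissue. On the deposited log2 values limma called 0 in autoMACS to Tyto against autoMACS, 1 in Tyto against FACSAria, and in TRAP 2 in sort Cell against Tissue, 0 with inhibitors and 1 in Dounce against Cell. Fits of only the groups compared gave 0 in autoMACS to Tyto against autoMACS and 1 in TRAP with inhibitors. With the mouse as a replicate block autoMACS to Tyto against autoMACS went to 0 and TRAP with inhibitors to 5, and the other 15 paired counts stayed within 1.5 times. Totals without globin changed 0 of 31 counts. No further filter changed 6, by up to 2, and summed near-identical genes 7, by 1 each, all within 1.5 times. Signs turned for the globins of Input autoMACS to Tyto against autoMACS without mouse 73 (Hba-a1 -0.68 to 4.59, Hba-a2 -0.44 to 4.75, Hbb-bs -0.59 to 4.80 and Hbb-bt -0.59 to 4.70 over the fits that left out 1 library), for Ly6c2 when summed with Ly6c1 (-0.93 in Dounce-Input against Tissue-Input and -4.53 against Cell-Input), and for Alas2 in TRAP Dounce against Cell without Cell-TRAP of mouse 156 (-0.77 to 1.37). Other than for the filter and for fits with fewer libraries, the cause was not tested. Depth limits S100a8, S100a9 and Ly6c2 in TRAP, where many libraries held 0 to 4 counts.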

Other observations

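The genes most like S100a9 over the 24 Input libraries of the sort table, by Pearson's r of log2(CPM + 1), were Ngp at 0.947, Ltf at 0.941, Chil3 at 0.929, Retnlg at 0.928 and Mmp8 at 0.922, all known from neutrophil granules or from neutrophils and monocytes. With each group's mean taken off, Ngp, Chil3, Camp, Ltf and Retnlg led at 0.813 to 0.849. Genes most like Hbb-bs were Ccpg1os at 0.879, Upp1, Hip1, Sorbs3 and Stard4, none of them a known erythroid gene. Genes most like Ccr2 were AB124611 at 0.986, Emp3, Clec4a1, Ms4a6c and Lyz1. With group means taken off they were 4430402I18Rik at 0.859, Dnaaf5, Arhgef3, Egln3 and Wnt6, so that 0 of 5 were shared between the 2 measures for Ccr2. These values describe libraries that share mice, preparation and depth.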
